A study of Mus musculus with 30 samples.

Results

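The cytosolic ribosomal protein genes were followed in blood mononuclear cells (PBMC, a Ficoll fraction of mainly lymphocytes and monocytes) of mice given oleic acid (OA) or physiological serum. Members were taken by name. Probes of genes called Rpl or Rps with a number were used, with an optional closing letter, l, x or y. Rpsa, Rplp0, Rplp1 and Rplp2 were added, and the Rps6k kinases and names holding -ps were left out. This gave 186 probes of 82 gene names among the 55681 non-control probes of the array. Those whose spot stood well above background on 15 or more arrays of 30 were kept: 179 probes of 79 gene names, among 23304 kept probes overall. Of the 179 probes, 108 belonged to 44 large subunit genes, 64 to 30 small subunit genes, 5 to the 3 stalk genes Rplp0, Rplp1 and Rplp2, and 2 to the paralogs Rps27l and Rpl36al. The signal on all 30 arrays was well above background for 172 of them. Among the 7 probes left out were both probes of Rpl10l (3 and 5 arrays), those of Rpl39l (2 arrays) and Rpl3l (1 array), and 1 probe each of Rps15a (5 arrays) and Rps27a (8 arrays). Just inside the limit were 1 probe each of Rpl39 and Rpsa, with 21 arrays each. The name Rpl22p also met the rule and was kept with 2 probes, counted in the large subunit. Both are among the members that rose at 24 h below. Whether Rpl22p names a pseudogene was not checked.

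All animals were female C57BL/6 mice aged 6 weeks, anesthetized and injected through the tail vein with 200 µl. Controls received physiological serum and were killed after 1 h (3 arrays), 1.5 h (3), 3 h (2), 4 h (1), 18 h (2) or 24 h (2). The treated mice received OA, which damages the lung after intravenous injection, at 1.2 µl per g body weight, with 3 arrays at each time except 4 h, which had 2. PBMC were isolated on Ficoll and 200 ng of their RNA was labelled with Cy3 for 1-colour Agilent arrays. The design text counts 30 mice, so each of the 30 arrays was taken as 1 animal.

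Ribosomal proteins form the 40S and 60S subunits around the ribosomal RNA, and cells make them in nearly equal amounts. Their messages are among the most abundant in lymphocytes, and most begin at the cap with an unbroken stretch of pyrimidines, the terminal oligopyrimidine or TOP motif, through which mTOR and Larp1 set how well they are translated. A TOP message can therefore be stored or translated without a change in its level, and an array reads only the level.

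Because the members moved together, as described below, their start sites are shown first. RefSeq promoters (GRCm38.p6, 250 bases before to 50 after each start) matched 57 of the 79 genes. A C followed by 4 or more pyrimidines, beginning within 5 bases of the annotated start on the sense strand, was present for 27 of these 57 genes (47.4%), against 21.2% of all 27025 genes with a promoter in the table. A run of 7 or more was present for 38.6% of member genes and 7.64% of all genes, and a run of 5 or more beginning exactly at the annotated base for 22.8% and 3.01%. The letters CCGGAAG, the core recognised by ETS factors such as GABP, lay on either strand of the 300 bases for 24 of 57 member genes (42.1%) and 9.93% of all genes. GCCATCTT, the core recognised by YY1, did so for 5 of 57 (8.77%) and 3.19%. The sequences below run from 35 bases before the start to 20 bases from it onwards, with the pyrimidine run in capitals. They show long runs (Rpl15, Rps6), those of 3 genes with large differences below (Rpl35a, Rps27, Rps21) and the short run of the paralog Rps27l.
Rpl15: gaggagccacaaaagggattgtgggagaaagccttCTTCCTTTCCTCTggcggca
Rps6: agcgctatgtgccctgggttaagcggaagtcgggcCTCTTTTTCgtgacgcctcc
Rpl35a: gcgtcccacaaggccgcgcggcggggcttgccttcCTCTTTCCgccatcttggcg
Rps27: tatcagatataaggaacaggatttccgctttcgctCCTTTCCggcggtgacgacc
Rps21: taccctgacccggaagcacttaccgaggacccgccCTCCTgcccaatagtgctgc
Rps27l: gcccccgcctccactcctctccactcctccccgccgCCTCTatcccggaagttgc
These windows lie at chr14:18270967-18271021 (minus strand), chr4:86857348-86857402 (minus), chr16:33056447-33056501 (plus), chr3:90213629-90213683 (minus), chr2:180257344-180257398 (plus) and chr9:66946051-66946105 (plus). At 24 h the OA minus serum difference had a median of 0.96 over the 60 probes of genes with a run. It was 1.03 over the 67 probes of genes without one. The interquartile ranges, 0.82 to 1.14 and 0.80 to 1.23, overlapped almost fully. Runs were sought only near the annotated start, so genes without one here may still make TOP messages. The comparison therefore cannot show whether the motif matters.

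The arrays differed in ways the groups do not explain. Their 75th percentiles lay between 40.2 and 152 intensity units, and the share of probes well above background between 35.4% and 65.1%. The libraries of serum 24 h replicate 1 and OA 4 h replicate 2 stood apart: their median level of long intergenic RNA probes, relative to probes detected on every array, was -3.26 and -3.22, against -6.87 to -4.96 on the other 28 arrays. All B cell (12 of 12), T cell (15 of 15) and NK cell (10 of 10) markers and 10 of 11 monocyte markers were detected, but so were all 12 platelet, all 15 neutrophil and 12 of 14 erythroid markers, so the preparations held RNA of other blood cells as well. In such bulk RNA, fewer cells of a type and less RNA per cell cannot be told apart.

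Levels are given as log2 of the processed signal minus the array's 75th percentile, and as probes differ in brightness for a given message, no member's level is set against another's. Mean levels of the 179 probes ran from -2.17 to 10.08, with a median of 7.93. Among the lowest means were those of 1 probe each of Rpsa, Rpl39, Rpl6, Rpl21 and Rps25. The highest were those of Rpl37a (2 probes), Rps16, Rpl41, Rps14 and Rps27. Of the 79 genes, 56 had 2 or more kept probes. Ribosomal protein genes have many processed copies elsewhere in the genome, and 24 probes of 14 genes were placed by the files, in mm9, on another chromosome than the RefSeq gene, among them all 4 probes of Rps27. Signal of those genes from a near-identical copy cannot be told apart from that of the gene.

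The members rose and fell together from array to array. After group means were removed, a probe's correlation with the mean of the other members had a median of 0.94 over the 30 arrays, and 161 of 179 probes were above 0.8. These points share the array and its scaling. The member median spread most within serum 24 h (SD 1.15) and OA 4 h (SD 0.59), against 0.14 to 0.37 in the other groups with more than 1 array. No such correlation is given here without those groups or for other genes. Most closely tied to the rest were probes of Rps13 (0.99), Rps28 (0.98), Rpl13a (0.98), Rps27a (0.98) and Rpl30 (0.98), proteins of both subunits. Among the least tied were probes of Rpl6 (-0.09), Rpl21 (0.08), Rps3 (0.23) and Rpl39 (0.40), of which those of Rpl6, Rpl21 and Rpl39 were not well above background on some arrays. The spread of a typical probe within groups (SD 0.42, 18 residual degrees of freedom) shrank to 0.15 once the array's own median over the members was subtracted. The smallest residual SDs were those of Rpl21 (0.24), Rplp0 (0.29), Rpl14 (0.30), Rpl41 (0.30), Rps29 (0.30) and Rps15 (0.32), 1 probe each. Among the largest were those of Rps3 (1.22), Rpsa (0.79), Rpl17 (0.70), Rps21 (0.59) and Rpl11 (0.59).

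The median level of the 179 probes was 7.46 to 8.49 on 28 arrays. It was 6.41 on serum 24 h replicate 1 and 7.15 on OA 4 h replicate 2, the libraries with high intergenic signal. Relative to probes detected on every array, the first was still the lowest (5.37 against 5.76 to 6.47 on the other 29), whereas OA 4 h replicate 2 (6.16) lay within the range of the rest. The members made up 6.89% of the summed signal of the kept probes on serum 24 h replicate 1 and 10.2% to 15.2% on the others.

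**Figure D1:**
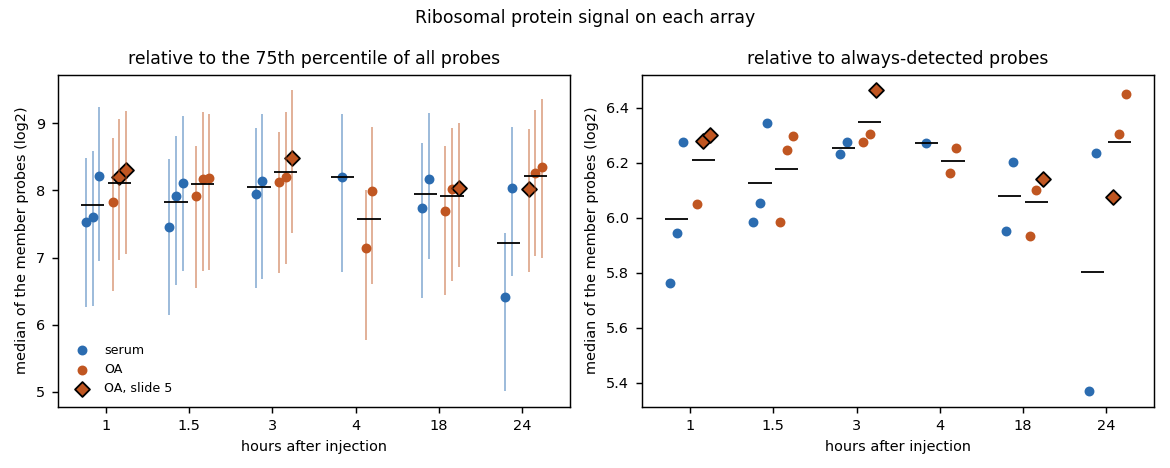
Median log2 level of the 179 ribosomal protein probes on each array, by hours after injection, relative to the array's 75th percentile (left, bars are the interquartile range over probes) and to always-detected probes (right, on a narrower axis). Blue points are serum arrays, orange points OA arrays, diamonds OA arrays of slide 5, and black dashes group means; serum 24 h replicate 1 lies lowest in both panels, at 6.41 and 5.37.

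At 1 h the member medians were 7.61, 7.52 and 8.21 on the serum arrays and 7.83, 8.30 and 8.19 on the OA arrays. The ranges overlapped. The median OA minus serum difference of the 179 probes was 0.29 (typical SE 0.36) against 0.04 over all probes, with 160 probes above 0. No member passed an adjusted p of 0.05 in limma, as none did among all 23304 probes (percent called 0.0), and 2 members had an unadjusted p under 0.05 against 1291 of all probes. OA was above serum without overlap for 0 members (3.52% of all probes) and below for 3 (8.53%). Among the smallest p-values were those of Rps21, a small subunit protein (0.97, SE 0.46), and Rpl7a (0.77, SE 0.42) above 0. Below 0 were Rpl6 (-0.66, SE 0.40) and Rps25 (-0.35, SE 0.33). Adjusted p of these 4 was 0.831 to 0.842 in limma. A gene named with a difference, here and below, stands for 1 probe unless more are given. The Rpl6 probe was well above background on 24 arrays, and it is the same probe where Rpl6 is named again with an SE. With arrays weighted by quality, 131 of 179 members passed at 1 h, and so did 44.9% of all probes. Within slide 1, which held 1 OA and 2 serum arrays, the median was -0.09.

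At 1.5 h the serum medians were 7.92, 8.11 and 7.46 and the OA medians 8.17, 7.92 and 8.18, again overlapping. The median difference was 0.21 for the members and 0.21 for all probes, and relative to always-detected probes 89 of the 179 members were above 0; no member passed in limma (percent called 0.0; 2 members and 2356 probes had an unadjusted p under 0.05). OA lay above serum without overlap for 13 members (7.26%), against 21.9% of all probes, and below it for 0 (6.86%). Within slide 3, which held 1 array of each treatment, the median member difference was -0.33, and within slide 4 it was 0.69. Rpl39 (0.98, SE 0.45), Rpl21 (0.65, SE 0.38) and Rpl31 (0.47, SE 0.32) had the smallest p above 0, and Rpl6 (-0.63, SE 0.40) and Rps3 (-0.28, SE 0.30) were among the smallest below it.

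At 3 h the serum medians were 8.14 and 7.95 and those of OA 8.13, 8.19 and 8.49. The members' median difference was 0.21 against 0.08 for all probes, with 137 above 0; within slide 1 it was 0.22. None passed in limma (percent called 0.0; 6 members and 2345 probes had an unadjusted p under 0.05). Without overlap OA was higher for 43 members (24.0%) and lower for 17 (9.5%), near the 21.0% and 15.6% of all probes. Rpl35a, a large subunit protein, was at 4.74 and 4.40 in serum and 5.15, 5.48 and 6.16 in OA (1.02, SE 0.39). Rps21 was at 3.65 and 3.34 in serum and 4.32, 3.98 and 5.89 in OA (1.23, SE 0.52). In both the treatments did not overlap, and the OA array of slide 5 was the highest. Rpl7a followed (1.09, SE 0.47), and the smallest p below 0 were those of Rpl6 (-1.06, SE 0.45), Rps3 (-0.72, SE 0.34) and Rps15 (-0.43, SE 0.34). The other probes of Rpl6 and Rps3 did not share these drops. Relative to the array's median over the members, the Rpl6 probe was at -1.28 and the others at 0.12, 0.41 and -0.14. On that scale the Rps3 probe was at -0.94 and the others at 0.01 and -0.05.

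At 4 h only 1 serum array was available, with a member median of 8.19, against 7.99 and 7.15 on the OA arrays. The median difference of -0.61 (typical SE 0.54) came beside -0.43 over all probes. No probe passed in limma (percent called 0.0; 7 members and 2252 probes had an unadjusted p under 0.05). Both OA arrays lay below the serum array for 142 members (79.3%), against 51.9% of all probes. The size of this difference depended on scaling: relative to always-detected probes the median was -0.05, with 71 of 179 above 0, and without OA 4 h replicate 2 it was -0.18. Within slide 3, which held OA replicate 2 and the serum array, it was -1.05. The smallest p were those of Rpl13a (-1.23, SE 0.50), Rps9 (-1.09, SE 0.48) and Rpsa (-1.22, SE 0.54). A probe of Rpl21 (0.53, SE 0.58) was 1 of 2 members above 0, and the other Rpl21 probes were below it.

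At 18 h the treatments were nearest to each other. The serum medians were 7.73 and 8.16, and the OA medians 8.03, 8.02 and 7.69. The median member difference was 0.01 (interquartile range -0.07 to 0.07, typical SE 0.40) against -0.06 for all probes, and 96 probes were above 0; within slide 2 the median was -0.15. None passed in limma (percent called 0.0; 2 members and 187 probes had an unadjusted p under 0.05). The treatments overlapped for every member, while 2.42% of all probes were higher and 2.72% lower in OA without overlap. Beside another Rps3 probe, treated below, Rpl6 (0.73, SE 0.45) and Rpl30 (0.29, SE 0.34) had the smallest p above 0. Those below 0 were Rpl39 (-1.23, SE 0.51), Rps25 (-0.53, SE 0.37) and Rpl27a (-0.28, SE 0.38).

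**Figure D2:**
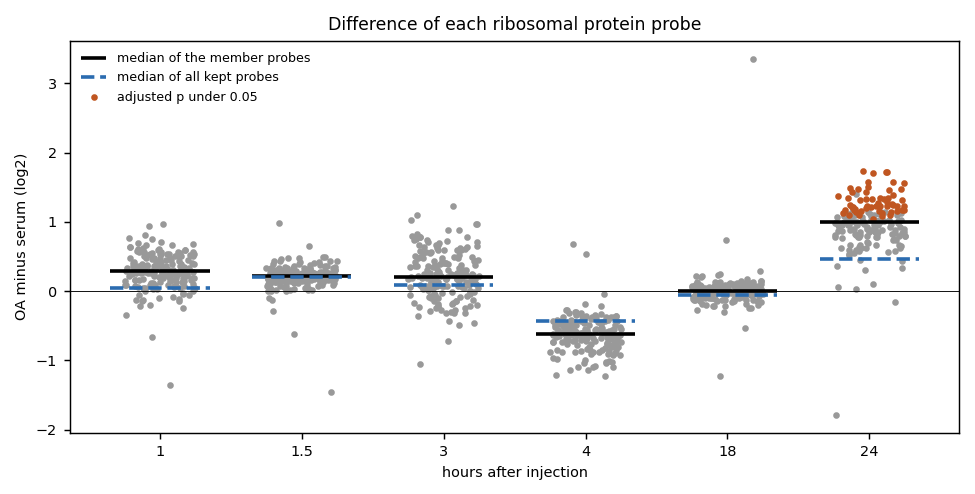
OA minus serum difference (log2) of each of the 179 ribosomal protein probes at each time; orange points passed an adjusted p of 0.05 in limma, black lines are the median of the members and dashed blue lines the median of all 23304 probes. Only at 24 h did members pass, with a median of 1.00 against 0.46.

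At 24 h members of both subunits were higher after OA. The member medians were 6.41 and 8.03 on the serum arrays and 8.01, 8.26 and 8.35 on the OA arrays. The OA arrays and the second serum array were thus close, and the distance to the first serum array made most of the difference. The median difference was 1.00 (interquartile range 0.81 to 1.16, typical SE 0.40) against 0.46 for all probes, with 177 of 179 above 0. In limma 56 members of 38 genes rose and none fell, against 16.7% of all probes that rose and 4.88% that fell (21.6% called in all). OA was above serum without overlap for 87 members (48.6%) and 34.3% of all probes, and below it for 1 member and 16.1% of all probes. Among large subunit probes 35 of 108 rose (median 1.03), among small subunit probes 19 of 64 (median 0.95), both paralog probes rose, and none of the 5 stalk probes passed (median 0.64, range 0.52 to 0.86). Of the 56 genes with several probes, all probes rose for 8, some for 22 and none for 26. With 1 probe per gene name 29 of 79 genes rose, against 18.1% of all names that rose (22.9% called in all).

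The smallest p belonged to Rps27l, a paralog of Rps27 known as a p53 target. It was at 1.2 and 2.94 in serum and at 3.55, 3.97 and 3.88 in OA (1.73, SE 0.42, limma adjusted p 0.0228). Rpl35a was at 3.47 and 4.81 in serum and 5.52, 5.65 and 5.64 in OA (1.46, SE 0.39, adjusted p 0.0259). In both the treatments did not overlap and serum replicate 1 was far below replicate 2. Rpl27 (1.57), 3 probes of Rpl36a (1.72, 1.5 and 1.48), Rps25 (1.34), Rpl17 (1.35) and Rps27 (1.39) were also among the 10 smallest p, with adjusted p of 0.026 to 0.0296.

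**Figure D3:**
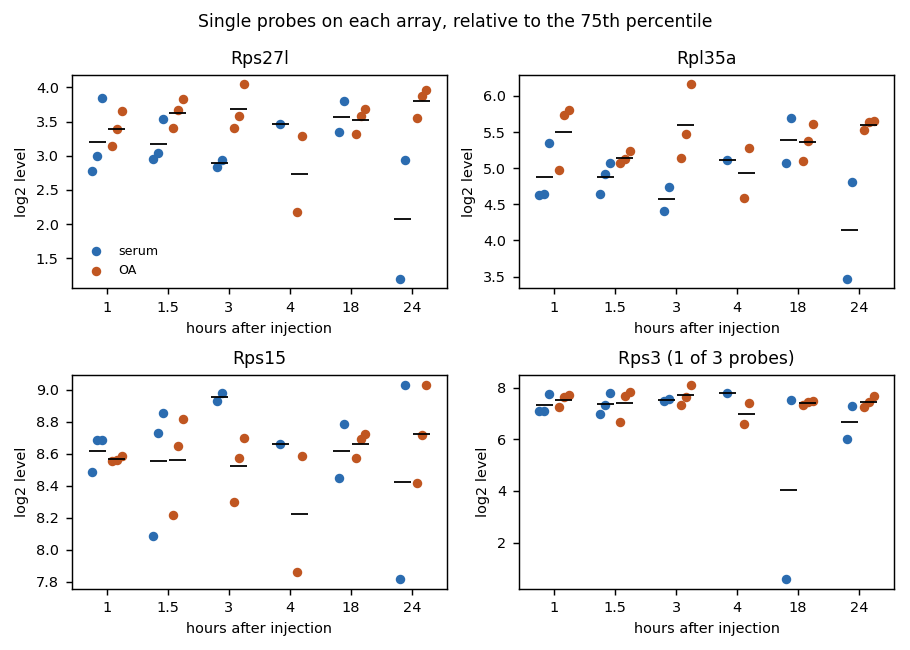
Log2 level, relative to the array's 75th percentile, of 4 single probes on every array by hours after injection; blue is serum, orange OA, black dashes are group means, and the vertical axes differ. In Rps27l and Rpl35a all 3 OA arrays at 24 h lie above both serum arrays; in Rps15 they overlap; 1 serum array at 18 h lies at 0.60 in Rps3.

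This 24 h difference rested on serum 24 h replicate 1. Without it the median was 0.22 and 0 of 179 members passed in limma (0.0172% of all probes), 0 of them with an unadjusted p under 0.05; without serum 24 h replicate 2 it was 1.80 and 172 members passed, as did 49.0% of all probes. Leaving out an OA array of 24 h kept the median at 0.91 to 1.09 but left 1, 0 and 0 members past the threshold (1.41%, 3.11% and 0.0601% of all probes without OA replicate 1, 2 and 3). Both serum arrays of 24 h lay on slide 1 and the OA arrays on slides 2, 3 and 5, so no within-slide value exists at this time; with slide as a block in the fit the median was 0.90 and 0 members passed (0.00858% of all probes), 67 of them with an unadjusted p under 0.05. Relative to always-detected probes the median was 0.49 with 10 members past the threshold, all higher, against 5.4% of all probes that rose (12.4% called in all), and the median of all probes was -0.06. The marker means that follow are also relative to always-detected probes. Replicate 1 of serum 24 h had the highest erythroid markers of all arrays on that scale (mean of 12 markers 8.17, against 5.74 on serum 24 h replicate 2 and 5.06 to 6.57 on the OA arrays). Its monocyte markers were the lowest (mean of 10 markers 0.26, against 0.87 and 2.05 to 2.29), and of lung epithelium markers 2 of 8 were measured, with a mean of 0.73 against -1.60 and -5.07 to -4.05. The part of these in the members' difference was not tested.

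To see which members departed from the rest, the array's median over the members was subtracted in place of the 75th percentile. On this scale 5 members passed in limma at 24 h, against 10.4% of all probes. The scaling centres the members and not the other probes, so these counts cannot be compared. Rps27l stayed above the others' change by 0.74 (SE 0.18, adjusted p 0.0343), with -5.21 and -5.09 in serum and -4.47, -4.29 and -4.47 in OA. A probe of Rpl36a was at -3.29 and -2.91 in serum and -2.24, -2.52 and -2.33 in OA (0.74, SE 0.22). In both genes the 2 serum arrays lay below all OA arrays. Both probes of Rps15, a small subunit protein at the head of the 40S, departed downward from the others' change. Relative to the 75th percentile both were still higher after OA (0.30 and 0.36), but neither passed in limma. On the member-median scale 1 was at 1.41 and 0.99 in serum and 0.40, 0.46 and 0.68 in OA (-0.69, SE 0.20). The other was at -0.52 and -0.53 against -1.28, -0.98 and -1.20 (-0.63, SE 0.18). Without the 3 arrays that correlated least with the rest (replicate 2 of OA 4 h, with replicate 3 of serum 1.5 h and replicate 1 of serum 24 h) the differences were 0.68 for Rps27l, 0.54 for Rpl36a and -0.48 and -0.62 for Rps15, and none passed.

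The probes of these members differ in base composition, so the sequences on the array are shown with G and C in capitals, first those that departed upward or rose most, then those of Rps15.
Rps27l: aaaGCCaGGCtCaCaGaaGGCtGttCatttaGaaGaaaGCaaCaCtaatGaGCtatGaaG
Rpl35a: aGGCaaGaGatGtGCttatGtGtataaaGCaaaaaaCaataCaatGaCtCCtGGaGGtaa
Rpl36a: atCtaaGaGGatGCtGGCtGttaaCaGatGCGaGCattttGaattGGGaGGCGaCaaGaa
Rps15 (first): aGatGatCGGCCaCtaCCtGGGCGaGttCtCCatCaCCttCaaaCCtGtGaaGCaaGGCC
Rps15 (second): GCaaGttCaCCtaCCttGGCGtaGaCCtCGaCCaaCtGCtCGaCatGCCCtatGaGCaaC
In mm9 these lie at chr9:66795486-66797176, chr16:33057593-33058788, chrX:131122046-131122105, chr10:79756716-79756775 and chr10:79755554-79756394, all on the plus strand; the first, second and last span an intron and the other two lie in 1 block. They hold 41.7%, 36.7%, 45.0%, 55.0% and 55.0% G and C.

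Across the 179 members, base composition of the probe (26.7% to 55.0% G and C) and the OA minus serum difference ran opposite to each other at 4 of the 6 times. The correlation over probes for the 6 times in order was -0.63, -0.37, -0.70, -0.07, 0.16 and -0.51; over all 23304 probes it was -0.39, -0.31, -0.43, 0.18, 0.12 and -0.42. The points share arrays, so this is a description. At 3 h the 58 members with at most 40% G and C had a median difference of 0.56 and the 35 with at least 50% one of -0.13. At 24 h 35 of the 58 and 3 of the 35 were among the 56 that rose, with medians of 1.19 and 0.79.

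Probes of the same gene showed it too. For 42 genes the probes poorest and richest in G and C were at least 5 percentage points apart, and the poorer probe had the higher OA minus serum difference in 35 genes at 1 h, in 32 at 1.5 h, in 38 at 3 h, in 27 at 4 h, in 15 at 18 h and in 37 at 24 h. In Rpl27, a large subunit protein, the probe with 35% had 1.57 at 24 h and that with 55% had 0.85. In Rpl13 the probe with 35% had 1.34 and 1 with 55% had 0.62. Only the first of each pair passed in limma.

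The array slides differed in the same measure. The median deviation of the 35 GC-rich members minus that of the 58 GC-poor members was -0.52 to -0.29 on the 5 arrays of slide 5, all of them OA, and -0.16 to 0.68 on the other 25 arrays. Per the file headers, the 5 arrays of slide 5 were scanned on a different day from the other 25. Slide and scan day cannot be told apart for them, and no serum array shared either. Without slide 5 the correlation over members was -0.10 at 1 h, -0.64 at 3 h and -0.43 at 24 h. With slide as a block it was -0.29, -0.59 and -0.28. The highest value, 0.68, was that of serum 3 h replicate 2. The part of base composition in the members' differences beyond these values was not tested.

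**Figure D4:**
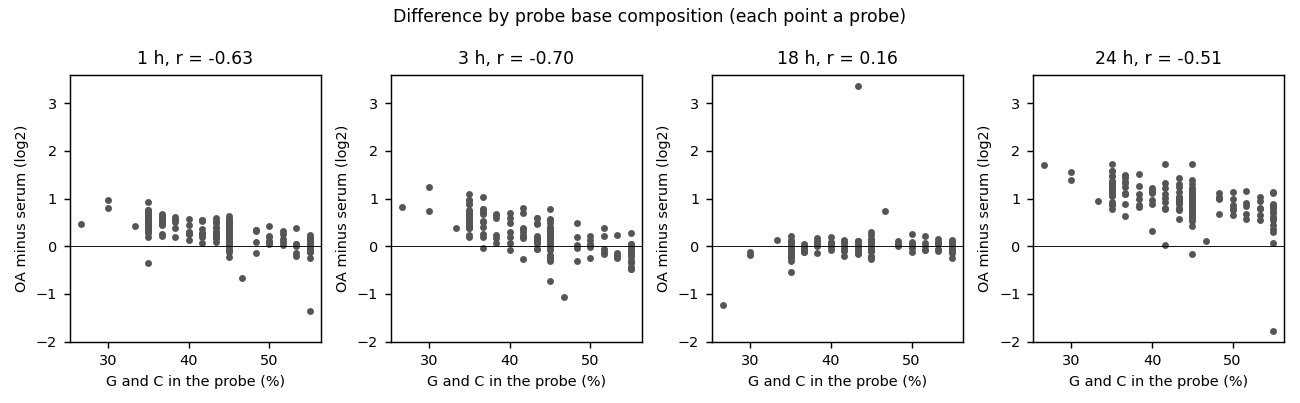
OA minus serum difference (log2) of the 179 ribosomal protein probes against the share of G and C in the probe (%), at 1, 3, 18 and 24 h; each point is a probe. GC-poor probes lie higher at 1, 3 and 24 h (r of -0.63, -0.70 and -0.51) and not at 18 h (0.16).

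Single probes could also leave the others of their gene. One of 3 probes of Rps3, a small subunit protein also implicated in DNA repair, was at 0.60 on serum 18 h replicate 1 and at 6.02 to 8.12 on the other 29 arrays. The other Rps3 probes on that array were at 6.39 and 2.82, inside their ranges. This spot alone set the probe's difference of 3.36 at 18 h (SE 1.00), which became -0.10 without that array; without serum 18 h replicate 2 it was 6.81 and passed (limma adjusted p 7.18e-08).

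Rpl6, Rps3, Rpl21 and Rpl14 were among the genes whose probes disagreed most at 24 h, with ranges of 0.10 to 1.31, -0.16 to 0.79, 0.03 to 0.95 and 0.58 to 1.42.

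Of the paralogs, copies of family members of which some have restricted or inducible expression, those of Rpl3l, Rpl10l and Rpl39l did not reach 15 arrays, while their parents Rpl3, Rpl10 and Rpl39 were well above background on all arrays except for the 1 Rpl39 probe named above. Both were measured for a pair of genes. Rpl36al rose by 1.49 (SE 0.47, limma adjusted p 0.0353) and the 3 Rpl36a probes by 1.48 to 1.72. Rps27l rose by 1.73 and the 4 Rps27 probes by 1.24 to 1.39. The difference between parent and paralog was not tested.

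Averaged over the 6 times, the members' median OA minus serum difference was 0.19 (159 of 179 above 0) against 0.04 for all probes, and none passed in limma (percent called 0.0; 19 members and 3988 probes had an unadjusted p under 0.05). Rpl35a (0.53, SE 0.16) and Rps21 (0.63, SE 0.22) had the smallest p above 0, with adjusted p of 0.223 and 0.229. Below 0, the Rpl6 (-0.35, SE 0.19) and Rps3 (-0.22, SE 0.14) probes of the 3 h comparison were among the smallest.

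Time was compared as the mean of 18 and 24 h minus the mean of 1 to 4 h. The serum arrays had a median of -0.39 over the members (5 of 179 above 0) and -0.12 over all probes, and no member passed in limma (0.506% of all probes; 9 members had an unadjusted p under 0.05). Without serum 24 h replicate 1 this median was 0.01. Rps3 (-2.14, SE 0.68), Rpl29 (-0.58, SE 0.25) and Rps9 (-0.56, SE 0.24) had the smallest p, the first through the spot described above. Among the smallest p above 0 were those of Rpl21 (0.34) and Rpl39 (0.36). After OA the median was 0.09 (-0.03 relative to always-detected probes) and again none passed (0.408% of all probes; 2 members had an unadjusted p under 0.05): Rpl6 (0.70, SE 0.25), Rpl30 (0.41, SE 0.19) and Rps27l (0.30, SE 0.23) led above 0, and Rpl21 (-0.19), Rpl4 (-0.07) and Rpl11 (-0.06) below it. The late minus early change of the OA minus serum difference had a median of 0.48, and 0 members passed (percent called 0.0; 5 had an unadjusted p under 0.05), led by Rpl6 (1.16, SE 0.40), Rps3 (2.17, SE 0.88) and Rpl29 (0.75, SE 0.32). F tests over the times likewise called 0 members for the OA minus serum difference (0.0% of all probes), for serum (0.172%) and for OA (0.378%), with 5, 4 and 2 members at an unadjusted p under 0.05.

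Other genes of the translation machinery were read by the brightest probe of each gene. Their 24 h counts stand beside 16.7% of all probes that rose, 4.88% that fell and a median of 0.46. With only the brightest probe of each gene name, 18.1% of all names rose. Fau and Gnb2l1, ribosomal components under other names, had differences of 1.04 and 0.99 at 24 h and did not pass in limma (adjusted p 0.0832 and 0.0695). Of 25 elongation, initiation and other TOP message factors 9 rose and 0 fell (median 0.95), among them Hnrnpa1 (1.57) and Eif3a (1.47), and Eef1a1, the elongation factor that brings tRNA to the ribosome, did not pass (0.92, adjusted p 0.0669). Of 47 ribosome biogenesis genes 11 rose and 1 fell (median 0.76), a share that rose near that of all probes, with Nhp2 (1.45) and Pes1 (1.25) up and Rrp12 (-1.93) down. Of 17 genes that control ribosomal protein messages 6 rose and 1 fell (median 0.94): Rheb (2.15), which activates mTOR, and Tsc1 (1.41) were up and Tsc2 (-2.90), the partner of Tsc1, was down, and Larp1 rose by 1.1 (adjusted p 0.0484).

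Of 76 mitochondrial ribosomal proteins, which build the separate ribosome of that organelle, 38 rose and 0 fell at 24 h (median 1.03), against the same 16.7% and 4.88% of all probes, with Mrps14 at 1.63 and Mrpl22 at 1.41. Relative to always-detected probes the counts that rose were 1 of 25, 1 of 47, 2 of 17 and 13 of 76 for these lists in turn, against 5.4% of all probes, with medians of 0.44, 0.25, 0.43 and 0.52. The cytosolic members had 0.49 on that scale. All of these share the serum 24 h replicate 1 array.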

How the data were processed

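Per the file headers, the deposited files are Agilent Feature Extraction 10.5.1.1 output, and their linear intensity values (processed signal) are background-corrected within each array and not normalized between arrays. The authors' deposited table holds processed values made from the same arrays on a log2 scale, as set against the scanner intensities (62927 rows, column medians 5.35 to 5.36). Its background correction and centring were not stated in the sources used here, and it served only as an alternative. Control spots and outlier-marked spots were left out, log2 was taken, each array's 75th percentile subtracted, and spots of a probe averaged. A model of 12 treatment and time groups was fitted to all 30 arrays and 23304 probes with limma 3.58.1 in R 4.3.3 (lmFit, eBayes), with Benjamini-Hochberg adjustment over all of them and a threshold of 0.05. On simulated data with 200 probes changed by 2 on the log2 scale in the 24 h comparison it recovered 60.5%, and 2 unchanged probes were called. The simulated noise was independent between probes, whereas the real probes shared shifts of whole arrays. These rates therefore do not give the error rate in these data. Named members were those past the threshold (up to 10 per comparison by p), otherwise the 3 smallest p in each direction, the extremes of level, spread and correlation, the paralogs, and the genes whose probes differed most; Rpl13, Rpl27 and the second Rps15 probe were singled out after their values were seen. Results of a few single genes are not reported here. Members and lists were chosen with earlier results of these data known. Alternatives covered filter, scaling, background correction, slide, replicate block, array weights and arrays left out. Replicate numbers did not pair arrays (median correlation of same-numbered arrays -0.003, of others -0.002). The number of arrays limits the precision. The p-values rest on a spread between arrays pooled over the 12 groups, which also holds differences between slides and libraries. That pooled spread (SD 0.42 for a typical member) is below the spread of the member median within serum 24 h (SD 1.15). Serum 4 h, with 1 array, adds nothing to it.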

Additional observations from a re-analysis of the deposited data

Results flagged for a closer look

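Among the members named at 24 h, 3 had OA arrays all above the serum arrays at some times and all below the single serum array at 4 h. Each part of this was common. At 4 h the OA arrays lay below the serum array for 79.3% of members and 51.9% of all probes. At 24 h they lay above serum for 48.6% and 34.3%. Rps27l had differences of 0.79 at 3 h, 1.73 at 24 h and -0.74 at 4 h. Rps25 had 0.39 at 3 h, 1.34 at 24 h and -1.03 at 4 h, and Rpl17 had 1.35 at 24 h and -0.54 at 4 h. The contrast between these times was not tested on its own. An F test over all 6 times in limma gave adjusted p of 0.354 for Rps27l, 0.331 for Rps25 and 0.392 for Rpl17, so none passed.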

How the results depend on the processing

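At 24 h the 56 members called became 10 with always-detected scaling, 32 with quantile normalization, 161 with normexp, 36 with the authors' values, 32 with slide as a random block, 0 with slide as a fixed block, 29 of 79 with 1 probe per gene name, 5 with member-median scaling (chosen after seeing the data) and 0 without the 3 arrays that correlate least, without slide 5, with array weights, and with member-median or always-detected scaling after leaving out those 3 arrays or (member-median) slide 5. With the replicate block 15 were called at 24 h (median 0.97); it changed no other count of members called. The 24 h median was 0.49 with always-detected scaling, 0.44 with quantile normalization, 1.49 with normexp, 0.49 with the authors' values, 0.22 without the 3 arrays and 0.086 with always-detected scaling as well. Leaving out 1 array at a time gave 0 to 172 members called and medians of 0.22 to 1.80 at 24 h, medians of -1.05 to -0.18 at 4 h, 0.081 to 0.88 for the late minus early change of the OA minus serum difference and -0.78 to 0.012 for serum, and counts of 0 to 76 (difference over times), 0 to 32 (its late minus early change), 0 to 45 and 0 to 97 (serum over times and late minus early), and 0 to 1 at 18 h and for the mean of times. Array weights called 131 members at 1 h, 22 for OA over times, 3 for the difference over times, 2 for serum over times and 1 for OA late minus early. The 1 h median was 0.69 with normexp. At 4 h it was -0.053 with always-detected scaling, -0.14 with quantile normalization, -0.18 without the 3 arrays, 0.0095 with always-detected scaling as well, and -1.05 within slide 3; at 1.5 h it was -0.33 within slide 3 and 0.69 within slide 4. The late minus early change of the difference was 0.012 without the 3 arrays and -0.0085 with always-detected scaling as well. The cause of these shifts was not tested.

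Among single members, signs turned for Rpl21 at 4 h (-0.33 with quantile normalization, -0.15 with the authors' values), late minus early in the difference (0.032, authors' values), in serum (-0.0078, authors' values) and in OA (0.0597 quantile, 0.024 authors' values, 0.0021 without slide 5, 0.024 with weights). Rps3 averaged over times was 0.0037 with normexp in its second probe, and Rps3 at 18 h was -0.10 to 6.81 over arrays left out. For Rpl39 the late minus early change of the difference was 0.35 with quantile normalization, 0.024 without slide 5 and -0.59 to 0.19 over arrays left out, and serum was -0.024 to 0.75. After OA, late minus early, Rpl4 was 0.053 with normexp and -0.21 to 0.051 over arrays left out, and Rpl11 was 0.052 without slide 5, 0.00065 with weights and -0.19 to 0.081 over arrays left out. Dim probes of Rpl6, Rpl21, Rpl39, Rps25 and Rpsa were not well above background on some arrays, which limits what their values can show.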
